A study of Mus musculus with 12 samples.

Results

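The genes described here encode the machinery that copies DNA and the machinery that divides the cell. They were chosen by name: 42 of the 54532 genes in the tables, of which 21 act in DNA replication during S phase and 21 act in mitosis. The study asked what an intestinal enhancer of *Ctnnb1*, the gene of the Wnt effector β-catenin, does in normal gut and in tumors. RNA-seq was made from 12 libraries of untreated adult mice on a C57BL/6 background, in 4 groups of 3. Small intestine crypts came from mice labelled Wild type and from mice labelled ieCtnnb1KO. Colon tumors came from APCmin/+ mice and from APCmin/+;ieCtnnb1KO mice, at an age of 5 months according to a figure legend of the study. Both tumor groups therefore carried the *Apc* Min allele, and crypts did not. The knockout, also written Ctnnb1Δi.enh, is a germline CRISPR deletion of the enhancer in the homozygous state, so that every cell of the mouse lacks it, in epithelium and elsewhere. Crypts were released from the gut wall with EDTA and filtered, and both crypts and tumors were sequenced in bulk. The age of the crypt mice is given only as adult. Below, control means Wild type in crypts and APCmin/+ in tumors, and libraries are listed in the order of replicates 1, 2 and 3. The comparison asks whether crypts or tumors without the enhancer hold other levels of the genes of dividing cells.

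Values are FPKM, fragments per kilobase of gene scaled to the depth of the library, from a separate table for each tissue. Between 14457896 and 16156712 fragments per library fell on genes. Gene positions are those of mm10. The members had from 91 fragments (*Gins1*) to 5113 fragments (*Top2a*) in a crypt library, and from 121 (*Ccne2*) to 5226 (*Top2a*) in a tumor library. All 42 had a mean of at least 0.5 FPKM in both tissues and were tested. *Ctnnb1* itself, the gene whose enhancer was removed, was at 121, 134 and 123 FPKM in control crypts and 102, 104 and 105 FPKM in knockout crypts. In tumors it was at 299, 363 and 358 FPKM in control and 279, 248 and 250.2 FPKM in knockout libraries. Every knockout library was below every control library of its tissue, with log2 fold changes of -0.28 in crypts and -0.39 in tumors, but the crypt groups overlapped after rescaling to the same total, where the value was -0.13.

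The labelled tissues were checked against their defining markers. *Epcam*, an adhesion protein of all gut epithelium, was at 659 to 797 FPKM in crypts and at 696 to 896 FPKM in tumors. *Olfm4*, a marker of small intestinal stem cells, was at 530.4 to 964 FPKM in crypts and at 0.0866 to 0.209 FPKM in tumors. The 6 endothelial markers summed to 0.938, 1.05 and 0.799 FPKM in control crypts and 0.699, 0.716 and 0.764 FPKM in knockout crypts, near 0. The 10 fibroblast and smooth muscle markers summed to 6.599, 4.52 and 5.29 FPKM and 2.24, 5.27 and 3.21 FPKM there. Crypts differed in genes of the stomach, looked up after they were called with a library left out. *Pgc*, a pepsinogen, was at 17.5, 13.8 and 2.16 FPKM in control and 1.903, 2.24 and 1.74 FPKM in knockout crypts. *Gkn1* was at 7.08, 8.27 and 0 FPKM in control and 0, 0 and 0 FPKM in knockout crypts, and *Gkn2* at 12.3, 15.1 and 0 FPKM in control and 0, 0 and 0 FPKM in knockout crypts. Controls 1 and 2 thus held transcripts of gastric mucosa that the other 4 libraries lacked or held at lower levels. Whether all crypt libraries came from the same stretch of gut was not tested. In tumors *Fabp1* and *Apoa4*, which mark small intestinal enterocytes, were at 0 in every library but knockout 2. Libraries did not stand level before any comparison of genotypes. The 50 highest genes of each crypt library took 39.9% to 53.4% of its summed FPKM, and those of each tumor library 18.3% to 21.03%. By *Xist* and Y-linked genes all 6 crypt libraries came from males, and in tumors replicate 3 of each genotype came from a female. Within the members, crypt control 1 held the highest value for 24 of 42 genes and crypt control 3 the lowest for 28. Tumor knockout 2 held the lowest value for 27 and the highest for 0, and tumor knockout 3 the highest for 19.

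Dividing cells switch these genes on in waves. E2F transcription factors drive the replication genes as a cell commits to S phase: cyclin E opens the way, CDC6 and CDT1 load the MCM helicase onto DNA, CDC45 and the GINS complex start it, and the clamp PCNA holds the polymerases on the template. The mitotic genes follow later, when the DREAM complex is replaced by MYB and FOXM1 at a short promoter element named CHR, often beside CCAAT boxes that NF-Y binds, and cyclin B with CDK1 carries the cell into division. In the gut these programs run in the transit-amplifying cells of the crypt, and Wnt signaling through β-catenin is known for keeping them on in crypts and in *Apc* mutant tumors.

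The promoters of both classes were searched for these elements. RefSeq windows of build GRCm38.p6, from 250 bases before to 50 bases after each start, matched 34 of the 42 members by symbol. No window was matched for *Aurkb*, *Ccna2*, *Ccne2*, *Gins1*, *Gins2*, *Kif20a*, *Mcm4* and *Tpx2*. Motifs were searched by their letters on both strands: CHR as TTTGAA or TTCGAA, the CCAAT box as CCAAT, and the E2F site as TTTCCCGC, TTTCGCGC, TTTGCCGC or TTTGGCGC. Matches may overlap, since an E2F site on each strand can share letters. A CHR was present for 13 of 17 mitotic members (76.5%) and 4 of 17 S-phase members (23.5%), and for 21.7% of all 27025 genes with a window. The CCAAT box was present for 15 of 17 mitotic members (88.2%), 12 of 17 S-phase members (70.6%) and 41.1% of all genes. E2F sites showed the opposite order, with 9 of 17 S-phase members (52.9%), 1 of 17 mitotic members (5.88%) and 2.605% of all genes. CHR and CCAAT together were present for 13 of 17 mitotic members and 4 of 17 S-phase members (23.5%), against 8.61% of all genes.

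The windows of 7 members are printed 5′ to 3′ along the gene, with every match to a motif in capitals. *Mcm5* at chr8:75109259-75109558 (forward strand) and *Mcm6* at chr1:128359656-128359955 (reverse strand) hold both E2F sites and CCAAT boxes, which not all S-phase members do. *Cdk1* at chr10:69352863-69353162 (reverse strand) holds all 3 motifs and is the mitotic member with an E2F site. *Ccnb2* at chr9:70421505-70421804 (reverse strand) and *Top2a* at chr11:99024140-99024439 (reverse strand) repeat CHR and CCAAT. *Mki67* at chr7:135716330-135716629 (reverse strand) and *Plk1* at chr7:122159185-122159484 (forward strand) are shown because their values are given in full below.

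Mcm5: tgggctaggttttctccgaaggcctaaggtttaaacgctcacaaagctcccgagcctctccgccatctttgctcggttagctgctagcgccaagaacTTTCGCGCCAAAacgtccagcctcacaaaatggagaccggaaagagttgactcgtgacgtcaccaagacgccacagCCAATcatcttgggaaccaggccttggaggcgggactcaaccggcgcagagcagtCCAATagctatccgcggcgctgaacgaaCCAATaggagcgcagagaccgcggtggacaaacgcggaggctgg
Mcm6: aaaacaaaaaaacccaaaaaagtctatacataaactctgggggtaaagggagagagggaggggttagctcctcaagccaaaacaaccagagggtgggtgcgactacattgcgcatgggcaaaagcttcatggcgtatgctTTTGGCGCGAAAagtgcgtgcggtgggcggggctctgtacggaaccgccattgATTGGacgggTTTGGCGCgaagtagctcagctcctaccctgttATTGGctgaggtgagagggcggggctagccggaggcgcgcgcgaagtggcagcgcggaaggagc
Cdk1: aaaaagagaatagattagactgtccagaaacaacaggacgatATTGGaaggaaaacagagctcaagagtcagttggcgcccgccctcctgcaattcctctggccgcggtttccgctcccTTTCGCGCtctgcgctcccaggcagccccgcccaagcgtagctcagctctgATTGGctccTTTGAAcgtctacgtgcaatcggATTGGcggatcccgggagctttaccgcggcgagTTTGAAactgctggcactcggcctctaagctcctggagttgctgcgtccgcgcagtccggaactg
Ccnb2: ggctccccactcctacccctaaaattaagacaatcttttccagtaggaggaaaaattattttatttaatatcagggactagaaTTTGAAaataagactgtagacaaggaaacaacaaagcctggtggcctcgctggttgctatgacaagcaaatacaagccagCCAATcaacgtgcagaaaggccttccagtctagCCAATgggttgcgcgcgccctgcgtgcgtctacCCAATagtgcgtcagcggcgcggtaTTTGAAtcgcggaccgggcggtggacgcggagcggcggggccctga
Plk1: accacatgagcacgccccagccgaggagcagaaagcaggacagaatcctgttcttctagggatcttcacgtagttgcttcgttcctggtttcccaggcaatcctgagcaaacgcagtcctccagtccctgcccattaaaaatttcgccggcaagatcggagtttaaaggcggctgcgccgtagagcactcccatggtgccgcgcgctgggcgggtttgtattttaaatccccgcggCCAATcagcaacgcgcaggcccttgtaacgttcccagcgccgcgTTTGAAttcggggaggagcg
Top2a: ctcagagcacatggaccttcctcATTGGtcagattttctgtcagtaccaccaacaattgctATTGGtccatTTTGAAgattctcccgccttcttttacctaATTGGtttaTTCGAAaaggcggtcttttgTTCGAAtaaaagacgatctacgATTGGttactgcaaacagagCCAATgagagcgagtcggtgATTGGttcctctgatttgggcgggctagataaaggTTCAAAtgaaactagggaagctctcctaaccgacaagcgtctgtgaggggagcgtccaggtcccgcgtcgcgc
Mki67: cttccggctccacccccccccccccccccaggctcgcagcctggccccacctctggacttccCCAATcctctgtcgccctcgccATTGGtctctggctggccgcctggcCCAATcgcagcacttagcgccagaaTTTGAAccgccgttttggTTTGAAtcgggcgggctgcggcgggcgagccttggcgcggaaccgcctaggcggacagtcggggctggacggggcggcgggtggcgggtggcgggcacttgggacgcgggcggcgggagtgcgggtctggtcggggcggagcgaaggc

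Counted in bases from the start, with negative numbers before it, the CHR matches of *Top2a* began at -179, -140, -120 and -23 and those of *Ccnb2* at -167 and 4. *Plk1* had its CHR at 30, after the start. The E2F matches of *Mcm6* began at -110, -106 and -47, and those of *Mcm5* at -153 and -149. Such matches describe letters and do not show binding. Over all tested genes with a window, the median log2 fold change in crypts was 0.038 for the 681 genes with both CHR and CCAAT and 0.019 for the rest. In tumors these medians were -0.0070 and 0.014. Genes with an E2F site had medians of 0.026 in crypts and 0.0011 in tumors, against 0.019 and 0.013 without a site. These differences were not tested.

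All members were expressed in both tissues at low to moderate levels. Mean levels of S-phase members in crypts ranged from 2.43 FPKM for *Gins2* to 51.6 FPKM for *Pcna*, with a median of 9.37 FPKM. Mitotic members there ranged from 2.77 FPKM for *Cenpf* to 32.1 FPKM for *Ube2c*, with a median of 11.4 FPKM. The median over all tested crypt genes was 5.17 FPKM. In tumors the S-phase members ranged from 2.88 FPKM for *Ccne2* to 65.9 FPKM for *Pcna*, with a median of 12.6 FPKM, and the mitotic members from 3.44 FPKM for *Cenpf* to 45.6 FPKM for *Plk1*, with a median of 13.8 FPKM. The clamp *Pcna* was the most abundant S-phase member in both tissues. Among mitotic members the order at the top differed, with the ubiquitin-conjugating enzyme *Ube2c* in crypts and the kinase *Plk1* in tumors. Each tissue's table was normalized on its own, so levels were not tested between tissues.

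**Figure D1:**
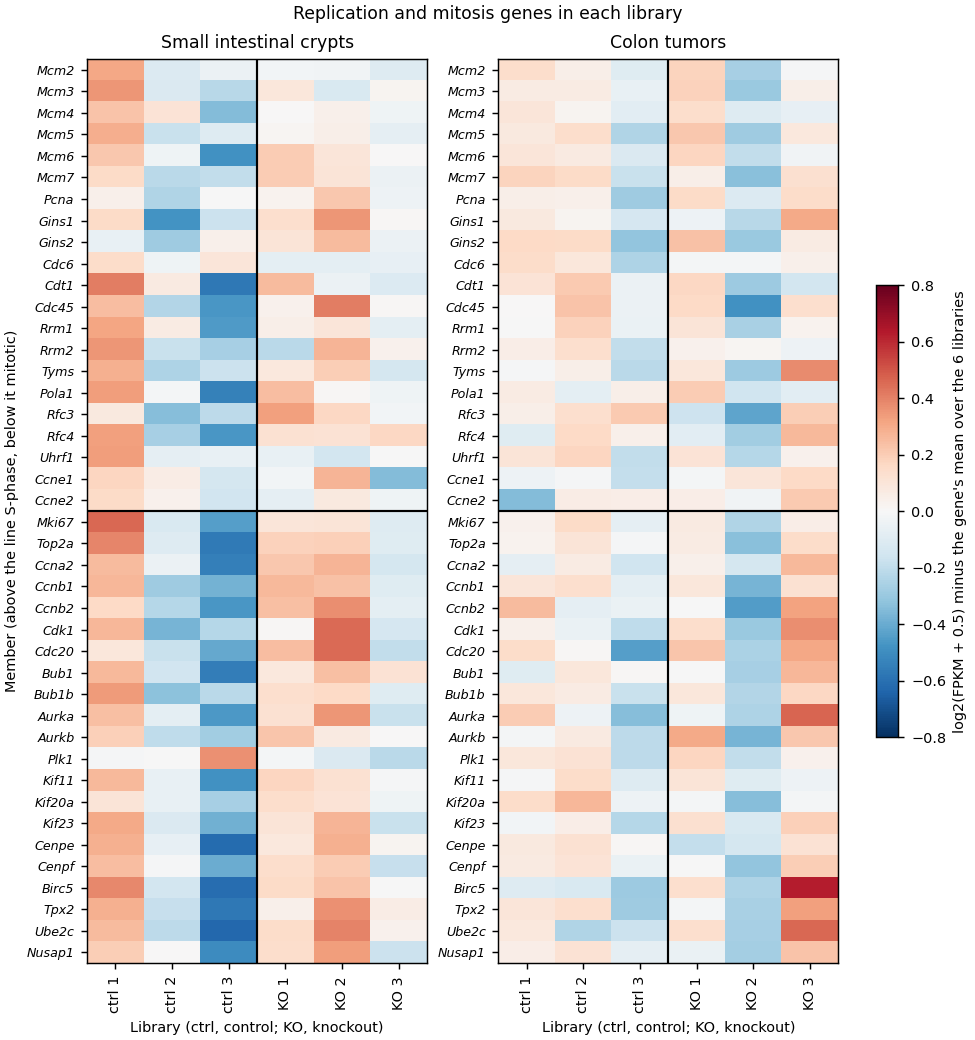
Level of each of the 42 members in each library, as log2 of FPKM plus 0.5 relative to the gene's mean over the 6 libraries of its tissue, with S-phase members and mitotic members apart. Crypt control 1 was highest for 24 members, crypt control 3 lowest for 28 and tumor knockout 2 lowest for 27.

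In crypts no gene passed the test. With limma, 0 of 14176 genes (0%) had an adjusted p under 0.05, and limma voom on recovered fragments also called 0. At an unadjusted p under 0.05 limma counted 494 genes higher in the knockout (3.48%) and 335 lower (2.36%), 829 in all, and voom counted 805. None of the 42 members was among those of limma in the comparison of all 6 libraries. The p-values measure only the spread among these libraries. Groups did not overlap for 0 members in the higher direction and for 2 in the lower direction, *Cdc6* and *Plk1*, named after their values were seen. Both overlapped after rescaling to the same total, and after quantile normalization the 2 were *Plk1* and *Uhrf1*. Over all genes 6.79% did not overlap with the knockout higher and 5.15% with the knockout lower, so that 2 of 42 lay near the background. The exact two-sided permutation test on 3 against 3 libraries cannot give a p below 0.1.

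The S-phase members as a class lay close to the median of all genes in crypts. Their log2 fold changes had a median of 0.063, against 0.014 over all genes, with 14 of 21 higher in the knockout and 7 lower. That count was 20 after rescaling to the same total, 12 after rescaling without the 50 highest genes and 13 after quantile normalization. Rescaling to the same total moved the median of all crypt genes by 0.13, and relative to all genes the S-phase median was then 0.060, against 0.048 as deposited. That relative median was 0.0094 after quantile normalization. Across the class fold changes ran from -0.14 for *Cdc6* to 0.33 for *Gins1*. All 21 intervals of 95% lay between -1 and 1, and their median half-width was 0.41. Fold changes are on the log2(FPKM + 0.5) scale, which understates changes of low genes. In bulk tissue fewer dividing cells and less RNA per cell cannot be told apart.

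*Ccne1* (chr7:38097984-38107534, reverse strand, ENSMUSG00000002068) encodes cyclin E1, the partner of CDK2 at the entry to S phase. It was at 4.71, 4.32 and 3.69 FPKM in the control and 4.06, 5.09 and 3.13 FPKM in the knockout libraries. The highest and the lowest value were both knockout libraries, and the control libraries lay between them. *Ccne1* had a log2 fold change of -0.062 (95% interval -0.50 to 0.38), with limma p = 0.748, adjusted p = 0.981 and exact permutation p = 0.9. This sign turned to 0.069 after rescaling to the same total, and to 0.0086 without control 1 and 0.097 without knockout 3. *Mcm2* (chr6:88883474-88898780, reverse strand, ENSMUSG00000002870), a subunit of the replicative helicase, was at 11.7, 8.59 and 9.02 FPKM in the control and 9.18, 9.13 and 8.63 FPKM in the knockout libraries. Control 1 alone was high, and the other 5 libraries lay together. *Mcm2* had a log2 fold change of -0.10 (95% interval -0.44 to 0.23), with limma p = 0.489, adjusted p = 0.938 and exact permutation p = 0.9, and its sign turned to 0.037 after rescaling to the same total and to 0.026 without control 1. The other 5 MCM genes had fold changes from -0.0080 (*Mcm3*) to 0.20 (*Mcm6*), all with overlapping groups.

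*Cdc45* (chr16:18780447-18811987, reverse strand, ENSMUSG00000000028), which joins MCM and GINS in the active helicase, was at 4.96, 3.39 and 2.82 FPKM in the control and 4.205, 5.58 and 4.12 FPKM in the knockout libraries. Knockout 2 was highest and control 3 lowest, and control 1 overlapped the knockout libraries. *Cdc45* had a log2 fold change of 0.30 (95% interval -0.20 to 0.81), with limma p = 0.201, adjusted p = 0.896 and exact permutation p = 0.3. This gene shares 209 bases with *Ufd1* on the other strand. *Gins1* (chr2:150905400-150931280, forward strand, ENSMUSG00000027454), a subunit of GINS, was at 6.35, 3.93 and 4.97 FPKM in the control and 6.24, 7.36 and 5.68 FPKM in the knockout libraries. Control 1 again lay among the knockout libraries, while controls 2 and 3 lay below all of them. *Gins1* had a log2 fold change of 0.33 (95% interval -0.11 to 0.77), with limma p = 0.123, adjusted p = 0.881 and exact permutation p = 0.3. The licensing factor *Cdc6* was at 2.903, 2.501 and 2.78 FPKM in the control and 2.41, 2.41 and 2.44 FPKM in the knockout libraries, with every knockout library below every control and a log2 fold change of -0.14 (exact permutation p = 0.1). Its pattern was singled out after the values were seen.

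*Pcna* (chr2:132249162-132253314, reverse strand, ENSMUSG00000027342), the sliding clamp of the polymerases, was at 52.8, 43.4 and 51.3 FPKM in the control and 52.4, 59.8 and 50.01 FPKM in the knockout libraries. Control 2 was lowest and knockout 2 highest, and the other 4 lay within a narrow span. *Pcna* had a log2 fold change of 0.14 (95% interval -0.18 to 0.46), with limma p = 0.347, adjusted p = 0.915 and exact permutation p = 0.5. *Rfc3* (chr5:151642756-151651242, reverse strand, ENSMUSG00000033970), a subunit of the loader that sets the clamp on DNA, was at 5.94, 4.33 and 4.79 FPKM in the control and 7.16, 6.36 and 5.52 FPKM in the knockout libraries. Controls 2 and 3 were below every knockout library, but control 1 was above knockout 3. *Rfc3* had a log2 fold change of 0.32 (95% interval -0.056 to 0.69), with limma p = 0.0847, adjusted p = 0.8601 and exact permutation p = 0.2, the smallest p among the 42 members in crypts. *Rrm2* (chr12:24708241-24714146, forward strand, ENSMUSG00000020649), the small subunit of the reductase that supplies deoxynucleotides, was at 14.7, 10.1 and 9.39 FPKM in the control and 9.78, 13.9 and 11.7 FPKM in the knockout libraries. Both genotypes held a high and a low library. *Rrm2* had a log2 fold change of 0.061 (95% interval -0.42 to 0.55), with limma p = 0.773, adjusted p = 0.984 and exact permutation p = 0.9, and its sign turned to -0.011 without control 2, -0.058 without control 3 and -0.058 without knockout 2. Beside *Cdc6*, *Ccne1* and *Mcm2*, the lower S-phase members were *Uhrf1* (-0.14), which reads hemimethylated DNA behind the fork, and *Ccne2* (-0.021), *Mcm3* (-0.0080) and *Mcm5* (-0.0060). Of these 7 all but *Cdc6* were higher after rescaling to the same total.

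**Figure D2:**
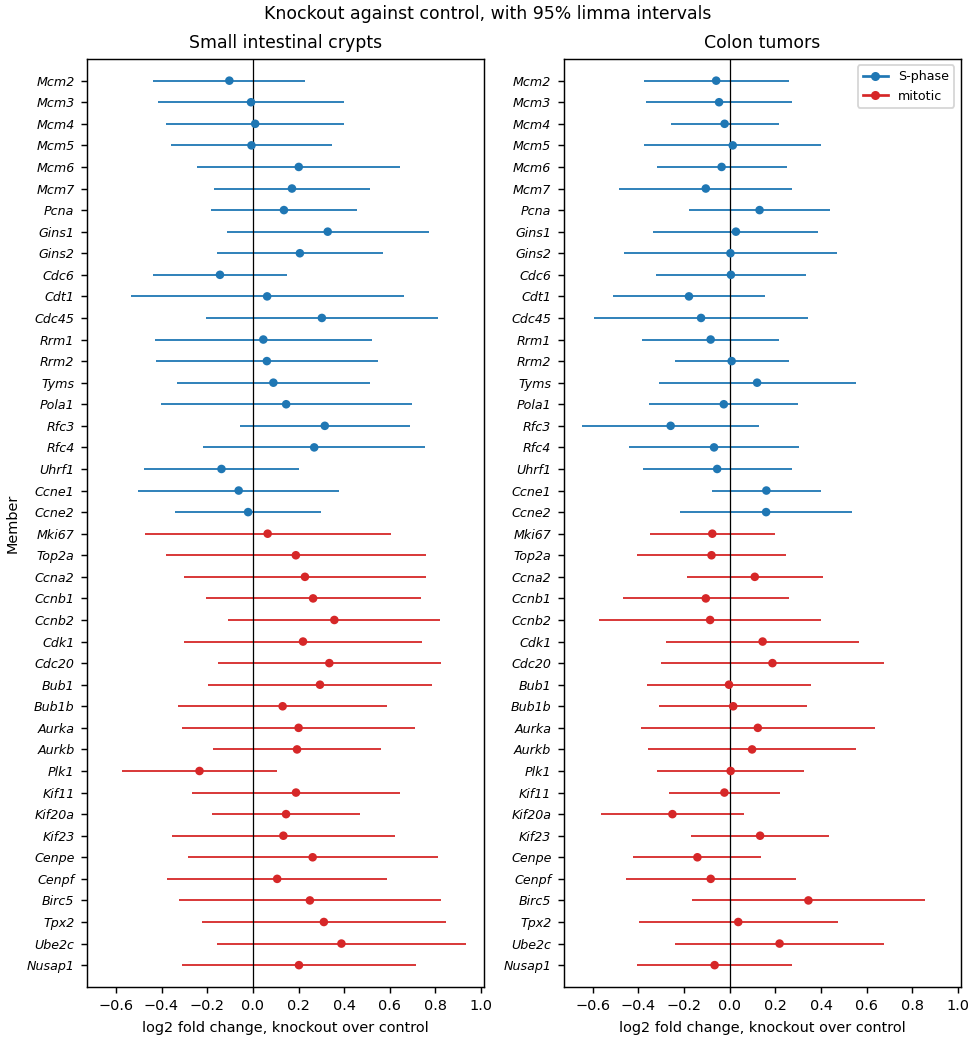
Log2 fold change of each member, knockout against control, with 95% intervals from limma, in crypts and in tumors, S-phase members and mitotic members apart. In crypts 20 of 21 mitotic members were higher in the knockout (19 after quantile normalization, 15 without control 3), and all 42 intervals lay between -1 and 1 in both tissues.

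The median over mitotic members in crypts was above that over S-phase members, and the difference between the classes was not tested. Their median log2 fold change was 0.20, with 20 of 21 higher and 1 lower, *Plk1*, against 52.8% higher among all genes. The count higher was 20 after rescaling to the same total, 20 without the 50 highest genes and 19 after quantile normalization. Relative to all genes the median was 0.19 as deposited, 0.20 after rescaling to the same total and 0.15 after quantile normalization. The direction leaned on single libraries: without control 3 the median was 0.019 with 15 of 21 higher, and without control 1 it was 0.41. The S-phase median was -0.060 without control 3 (9 of 21 higher) and 0.23 without control 1 (19 higher). At an unadjusted p under 0.05 limma counted 12 members without control 1 and 1 without knockout 3, *Cdc20*, named after its values were seen, while 9.48% and 5.33% of all genes were counted, and 0 members had an adjusted p under 0.05 in either. The 21 intervals had a median half-width of 0.49, wider than the 0.43 of all genes.

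*Mki67* (chr7:135689784-135716361, reverse strand, ENSMUSG00000031004) encodes Ki-67, which coats mitotic chromosomes and is used to stain cycling cells. It was at 31.1, 20.6 and 16.4 FPKM in the control and 24.1, 24.1 and 20.9 FPKM in the knockout libraries. The 3 knockout libraries lay between control 1 above and controls 2 and 3 below. *Mki67* had a log2 fold change of 0.065 (95% interval -0.47 to 0.60), with limma p = 0.784, adjusted p = 0.984 and exact permutation p = 0.9, with a sign that turned to -0.14 without control 3 and to -0.0050 after quantile normalization. *Top2a* (chr11:98992943-99024189, reverse strand, ENSMUSG00000020914), the topoisomerase that untangles sister chromatids, was at 36.6, 25.9 and 18.7 FPKM in the control and 31.8, 31.9 and 26.1 FPKM in the knockout libraries. Its highest and lowest libraries were both controls. *Top2a* had a log2 fold change of 0.19 (95% interval -0.38 to 0.76), with limma p = 0.4604, adjusted p = 0.935 and exact permutation p = 0.6, and its sign turned to -0.047 without control 3. *Cdk1* (chr10:69335146-69352938, reverse strand, ENSMUSG00000019942), the kinase of mitotic entry, was at 11.5, 7.197 and 8.02 FPKM in the control and 9.54, 13.1 and 8.59 FPKM in the knockout libraries. Knockout 2 was highest, and control 1 lay above the other knockout libraries. *Cdk1* had a log2 fold change of 0.22 (95% interval -0.30 to 0.74), with limma p = 0.351, adjusted p = 0.916 and exact permutation p = 0.5.

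The B cyclins bind CDK1. *Ccnb1* (chr13:100778650-100786570, reverse strand, ENSMUSG00000041431) was at 12.1, 8.16 and 7.61 FPKM in the control and 12.1, 11.9 and 9.35 FPKM in the knockout libraries. Controls 2 and 3 were below every knockout library, and control 1 was level with the highest of them. *Ccnb1* had a log2 fold change of 0.26 (95% interval -0.21 to 0.74), with limma p = 0.227, adjusted p = 0.896 and exact permutation p = 0.4. *Ccnb2* (chr9:70407692-70421547, reverse strand, ENSMUSG00000032218) was at 34.4, 26.2 and 22.2 FPKM in the control and 36.5, 39.96 and 29.2 FPKM in the knockout libraries. Its groups overlapped through control 1 and knockout 3. *Ccnb2* had a log2 fold change of 0.36 (95% interval -0.11 to 0.82), with limma p = 0.112, adjusted p = 0.873 and exact permutation p = 0.2, the smallest p among mitotic members in crypts. *Ube2c* (chr2:164769898-164778822, forward strand, ENSMUSG00000001403), a ubiquitin-conjugating enzyme of the anaphase-promoting complex, was at 37.3, 27.04 and 20.1 FPKM in the control and 34.7, 41.4 and 32.1 FPKM in the knockout libraries. Control 3 was lowest and knockout 2 highest. *Ube2c* had a log2 fold change of 0.39 (95% interval -0.16 to 0.93), with limma p = 0.136, adjusted p = 0.8901 and exact permutation p = 0.3, the highest fold change of the 42 members in crypts. *Cdc20*, which activates the same complex, had means of 27.3 ± 4.85 against 34.9 ± 7.79 FPKM (SD, n = 3 each) and a log2 fold change of 0.33. The kinases *Aurka* (0.20), *Aurkb* (0.19) and *Bub1* (0.29), the motors *Kif11* (0.19), *Kif20a* (0.15) and *Kif23* (0.13), and the centromere proteins *Cenpe* (0.26) and *Cenpf* (0.11) were likewise higher in mean log2 level, with overlapping groups.

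*Plk1* (chr7:122159439-122169873, forward strand, ENSMUSG00000030867), the polo-like kinase of mitosis, ran against its class. It was at 31.4, 31.6 and 40.9 FPKM in the control and 31.3, 29.2 and 27.1 FPKM in the knockout libraries. Control 3, lowest for 18 of the 21 mitotic members, was here the highest library, and every knockout library lay below every control, although control 1 and knockout 1 were almost level. *Plk1* had a log2 fold change of -0.23 (95% interval -0.57 to 0.11), with limma p = 0.148, adjusted p = 0.893 and exact permutation p = 0.1. Inside the *Plk1* gene the annotation holds *Gm44985* (ENSMUSG00000108688, chr7:122167029-122168044, reverse strand), a transcript of biotype TEC on the other strand that shares all 1016 of its bases with it. *Gm44985* was at 13.5, 23.9 and 38.2 FPKM in the control and 16.4, 13.6 and 16.9 FPKM in the knockout libraries, highest in control 3 as *Plk1* was. In tumors it was at 18.1, 24.6 and 13.4 FPKM in the control and 23.2, 21.2 and 21.2 FPKM in the knockout libraries. It was looked up after the values of *Plk1* were seen. Whether reads were counted by strand is not stated, so reads of these overlapping genes cannot be told apart.

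Summed over each class, the genotypes differed by less than the SD of the control libraries in crypts. S-phase members summed to 305, 237 and 222 FPKM in control crypts and 274, 279 and 254 FPKM in knockout crypts, or 255 ± 44.3 against 269 ± 13.5 FPKM (SD, n = 3 each). Control 1 was above all knockout libraries, and controls 2 and 3 below them. Mitotic members summed to 376, 287 and 245 FPKM in control and 354, 379.5 and 297 FPKM in knockout crypts, or 303 ± 67.2 against 344 ± 41.96 FPKM (SD, n = 3 each). The order of libraries was much the same, with control 1 and knockout 2 at the top and control 3 at the bottom. The ratio of the mitotic to the S-phase sum was 1.23, 1.21 and 1.102 in control and 1.29, 1.36 and 1.17 in knockout crypts, so the groups overlapped. Control 3 had the lowest ratio of the 6 libraries. Its median deviation from each gene's mean over the 6 libraries was -0.46 on the log2 scale for mitotic members and -0.20 for S-phase members. In control 1 both classes deviated alike, by 0.26 and 0.25. The SD between replicates within a genotype, as a median over genes, was 0.295 log2 units for mitotic members, 0.229 for S-phase members and 0.222 for all genes.

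**Figure D3:**
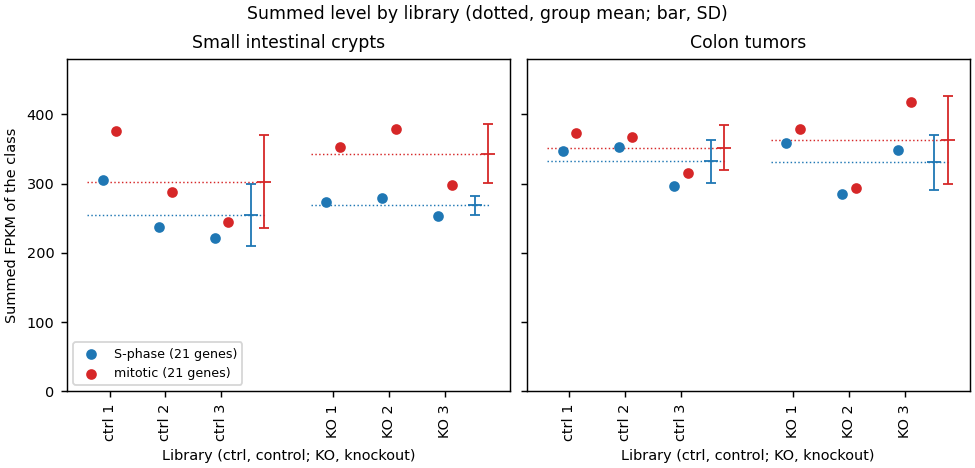
Summed FPKM of the 21 S-phase and the 21 mitotic members in each library (points), with the mean and SD of each group of 3, in crypts and in tumors. Mitotic sums were 303 ± 67.2 FPKM in control and 344 ± 41.96 FPKM in knockout crypts, with overlapping points in both classes and both tissues.

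Markers of cell types differed between the same crypt libraries. From here on, the 3 values in brackets after a count or share of higher genes are those after rescaling to the same total, rescaling without the 50 highest genes and quantile normalization. The 11 Paneth cell markers, led by *Defa24*, summed to 30435, 46287 and 80179 FPKM in control and 33019, 29721 and 31841 FPKM in knockout crypts, highest in control 3, where mitotic members were lowest, and 0 of 11 (1, 0 and 1) tested were higher in the knockout (median log2 fold change -0.56). The 10 enterocyte markers, led by *Fabp2*, summed to 4644, 7029 and 11822 FPKM in control and 9186, 6951 and 10939 FPKM in knockout crypts, lowest in control 1, where most members were highest, with 9 of 10 (10, 9 and 9) tested higher. The 8 goblet cell markers, led by *Tff3*, summed to 6045, 9273 and 9753 FPKM and 5483, 6571 and 8335 FPKM, with 1 of 8 (1, 0 and 1) tested higher. The 8 crypt stem cell markers, led by *Olfm4*, summed to 1054, 852 and 609.8 FPKM and 1051, 892 and 798 FPKM, with 4 of 8 (4, 2 and 2) tested higher and a median log2 fold change of -0.10 that was 0.025 after rescaling to the same total. Of the 8 markers 3 lay lower without overlap, *Axin2*, *Rnf43* and *Znrf3*, named after their values were seen, or 0, 4 and 3 under the 3 scalings. Among all genes that share was 5.15% as deposited and 2.18%, 8.1% and 4.85% under the scalings. None of these genes was at 0 in a crypt library. Germinal center B cells, which divide fast, were represented by 8 markers led by *Rgs13* that summed to 22.1, 26.5 and 22.2 FPKM in the control and 19.5, 21.1 and 28.1 FPKM in the knockout libraries, with 0 of 5 (2, 0 and 0) tested higher and none at 0. The 14 leukocyte markers, led by *Cd8a*, summed to 63.4, 65.8 and 65.6 FPKM in the control and 59.2, 68.2 and 55.6 FPKM in the knockout libraries, with 3 of 11 (6, 3 and 3) tested higher and *S100a8* at 0 in every library. The part of these cell types in the levels of the members was not tested.

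**Figure D4:**
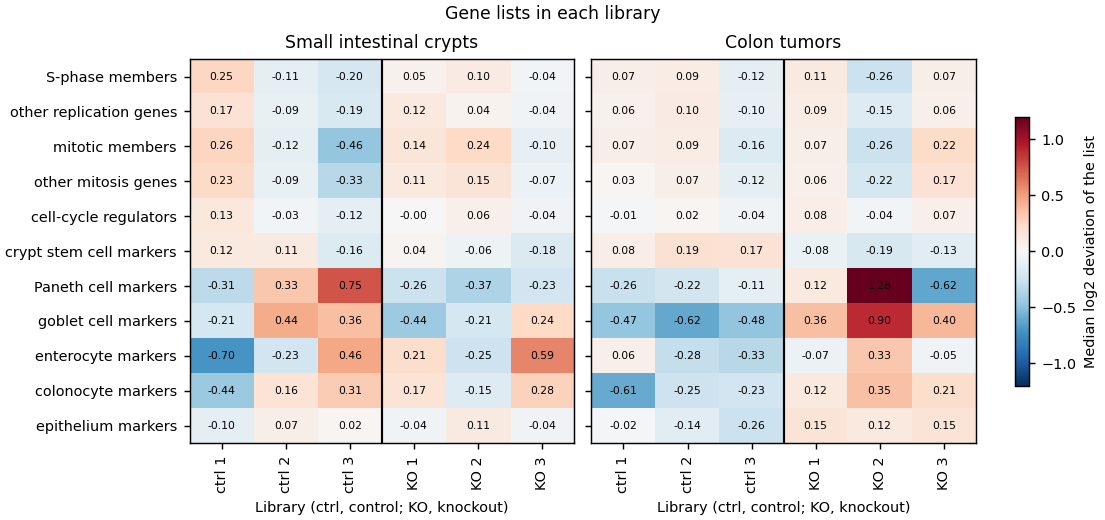
Median deviation of the genes of each list from their mean over the 6 libraries of a tissue, on the log2 scale, for S-phase members, mitotic members and cell type markers in each library. In crypt control 3 mitotic members deviated by -0.46 and Paneth cell markers by 0.75, and in tumor knockout 2 by -0.26 and 1.28.

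Further genes of the same pathways, from lists fixed with the members, were counted in crypts beside all genes, of which 52.8% (73.5%, 41.7% and 51.1%) were higher. Of 50 other replication genes 39 (47, 26 and 37) were higher, with a median log2 fold change of 0.062, and of 60 other mitosis genes 52 (59, 44 and 52) were higher, with a median of 0.14. Limma counted 0 of either list at an unadjusted p under 0.05. Among the replication genes, small p came with *Rnaseh2a* (0.34), which removes RNA from DNA, and *Lig1* (0.25), which seals nicks behind the fork. The centromere gene *Cenpm* was at 3.44, 3.03 and 3.39 FPKM in the control and 3.99, 4.02 and 3.65 FPKM in the knockout libraries, without overlap, with a log2 fold change of 0.21 (exact permutation p = 0.1). It was followed by the securin *Pttg1* (0.26) and the kinetochore gene *Spc25* (0.31). Groups did not overlap for 2 replication genes (4%) in the higher direction and for 1 (2%), *Rfc1*, in the lower. Among all genes these shares were 6.79% and 5.15%. Among mitosis genes this held for 2 in the higher direction, *Cenpm* and *Hjurp*, and 0 in the lower, shares below those of all genes. *Rfc1*, *Cenpm* and *Hjurp* are named after their values were seen, and all 3 overlapped after rescaling to the same total.

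Of 44 cell-cycle regulators 43 were tested in crypts, as *Cdkn2a* lay below 0.5 FPKM. Of these 29 (40, 19 and 22) were higher, with a median of 0.042, and the smallest p were those of the inhibitor *Cdkn1c* (0.29), cyclin D3 *Ccnd3* (-0.22) and *E2f5* (-0.21), all above 0.05 with limma and with overlapping groups. The activator *E2f1* was at 4.403, 3.15 and 4.37 FPKM in the control and 4.11, 3.86 and 4.13 FPKM in the knockout libraries. Its genotypes overlapped, with a log2 fold change of 0.032 that turned to -0.024 after rescaling without the 50 highest genes and to -0.11 without control 2. *E2f8*, a repressor of the E2F family that is itself made in S phase, had a log2 fold change of 0.14 (95% interval -0.16 to 0.43). The mitotic activator *Foxm1* was at 7.73, 5.61 and 5 FPKM in the control and 6.03, 6.33 and 5.59 FPKM in the knockout libraries, with control 1 highest and control 3 lowest as for most members. Its log2 fold change was -0.0092, but 0.13 after rescaling to the same total and 0.16 without control 1 and 0.035 without knockout 3. *Mybl2*, the MYB protein that replaces DREAM, had -0.069, but 0.058 after that rescaling and 0.16 without control 1 and 0.056 without knockout 3.

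Among Wnt targets that drive the cycle, *Myc* and *Ccnd1* varied between single crypt libraries. *Myc* was at 51.6, 26.2 and 15.3 FPKM in the control and 23.4, 56.7 and 25.4 FPKM in the knockout libraries. Control 1 and knockout 2, the libraries with the highest mitotic sums, stood far above the other 4. *Myc* had a log2 fold change of 0.23 with an interval of -0.94 to 1.40, and its sign turned to -0.18 without control 3 and -0.17 without knockout 2. *Ccnd1*, the gene of cyclin D1, was at 35.6, 23.5 and 18.95 FPKM in the control and 21.2, 27.6 and 21.1 FPKM in the knockout libraries, again highest in control 1 and then knockout 2. Its log2 fold change was -0.12, turning to 0.024 after rescaling to the same total and to 0.13 without control 1. The inhibitor *Cdkn1a*, which blocks cyclin-dependent kinases, was at 27.6, 42.3 and 51.7 FPKM in the control and 29.99, 33.6 and 52.1 FPKM in the knockout libraries. It was lowest in control 1 and highest in control 3 and knockout 3. Its log2 fold change was -0.066, turning to 0.081 after rescaling to the same total, and to 0.13 without control 3, 0.092 without knockout 1 and 0.012 without knockout 2. Any part of these regulators in the levels of the members was not tested.

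In tumors no gene passed the test either. With limma, 0 of 16743 genes (0%) had an adjusted p under 0.05, and voom called 0. At an unadjusted p under 0.05 limma counted 1417 genes higher (8.46%) and 1004 lower (6%), 2421 in all, and voom counted 2541. Members made up 0 of these limma counts. Groups did not overlap for 0 of 42 members in either direction, while 11.4% of all genes did not overlap with the knockout higher and 10.6% with the knockout lower. That 0 depended on scaling: after rescaling to the same total 1 S-phase member, *Rfc3*, and 3 mitotic members, *Top2a*, *Kif20a* and *Cenpe*, lay lower in the knockout without overlap, against 17.5% of all genes. Without the 50 highest genes these were the same 3 mitotic members, against 18.3%, and after quantile normalization 1, *Top2a*, against 12.5%. These genes are named after their values were seen. S-phase members had a median log2 fold change of -0.026, with 9 of 21 higher, and mitotic members had a median of 0.0040, with 11 of 21 higher, against 0.0075 over all genes. These counts were 4 and 7 after rescaling to the same total, 4 and 7 without the 50 highest genes, and 6 and 8 after quantile normalization, where the mitotic median was -0.11, -0.11 and -0.025. Both rescalings moved all tumor genes alike, with shifts of their median of -0.098 and -0.099. Relative to all genes the S-phase median was -0.033 as deposited and -0.041 after rescaling to the same total, and the mitotic median -0.0035 and -0.015. After quantile normalization these relative medians were -0.071 for S-phase and -0.010 for mitotic members. Limma counted 2 members at an unadjusted p under 0.05 after either rescaling, *Kif20a* and *Rfc3*, named after their values were seen, against 15.03% and 16.02% of all genes. All 42 intervals lay between -1 and 1, with median half-widths of 0.33 and 0.36.

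*Ccne1* was at 6.59, 6.74 and 5.903 FPKM in the control and 6.72, 7.31 and 7.64 FPKM in the knockout libraries. Only control 2, just above knockout 1, kept the groups from parting. *Ccne1* had a log2 fold change of 0.16 (95% interval -0.077 to 0.40), with limma p = 0.153, adjusted p = 0.473 and exact permutation p = 0.2, the highest fold change and the smallest p among S-phase members in tumors. *Cdt1* (chr8:122568015-122573554, forward strand, ENSMUSG00000006585), which loads the MCM helicase with CDC6, was at 14.4, 15.4 and 12.9 FPKM in the control and 15.02, 10.8 and 11.97 FPKM in the knockout libraries. Knockouts 2 and 3 lay below all controls, and knockout 1 lay between controls 1 and 2. *Cdt1* had a log2 fold change of -0.18 (95% interval -0.51 to 0.15), with limma p = 0.242, adjusted p = 0.5597 and exact permutation p = 0.3. *Mcm2* was at 17.1, 16.005 and 14.4 FPKM in the control and 17.6, 12.8 and 15.4 FPKM in the knockout libraries. Knockout 1 was highest and knockout 2 lowest. *Mcm2* had a log2 fold change of -0.059 (95% interval -0.38 to 0.26), with limma p = 0.6696, adjusted p = 0.856 and exact permutation p = 0.7, and its sign turned to 0.057 without knockout 2. The other 5 MCM genes lay between -0.10 (*Mcm7*) and 0.013 (*Mcm5*), and knockout 2 was the lowest library for each of them.

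*Pcna* was at 67.6, 67.5 and 53.7 FPKM in the control and 73.04, 60.8 and 72.6 FPKM in the knockout libraries. Control 3 and knockout 2 were low, and the other 4 libraries were higher. *Pcna* had a log2 fold change of 0.13 (95% interval -0.18 to 0.44), with limma p = 0.347, adjusted p = 0.648 and exact permutation p = 0.5, and its sign turned to -0.013 after quantile normalization. *Rfc3* was at 9.58, 10.2 and 10.8 FPKM in the control and 8.21, 6.802 and 10.7 FPKM in the knockout libraries. Knockouts 1 and 2 lay below every control, but knockout 3 lay among them. *Rfc3* had a log2 fold change of -0.26 (95% interval -0.65 to 0.13), with limma p = 0.157, adjusted p = 0.477 and exact permutation p = 0.3, the lowest fold change of the 42 members in tumors, whereas in crypts its fold change was 0.32. *Rrm2* was at 17.97, 19.03 and 15.1 FPKM in the control and 17.8, 17.5 and 16.8 FPKM in the knockout libraries. All knockout libraries lay within the span of the controls. *Rrm2* had a log2 fold change of 0.0084 (95% interval -0.24 to 0.26), with limma p = 0.938, adjusted p = 0.978 and exact permutation p = 1, and its sign turned to -0.099 after rescaling to the same total, -0.10 without the 50 highest genes and -0.066 after quantile normalization. With libraries left out it was -0.087 without control 3 and -0.0079 without knockout 1. Among the remaining S-phase members the cyclin *Ccne2* (0.16) and the thymidylate synthase *Tyms* (0.12) were highest, and the helicase factor *Cdc45* (-0.13) was lowest. *Cdc6*, whose groups did not overlap in crypts, had 0.0051 in tumors, with overlapping groups.

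*Mki67* was at 25.1, 27.2 and 23.3 FPKM in the control and 25.7, 20.7 and 25.4 FPKM in the knockout libraries. Knockout 2 was lowest, below every control, and the other 5 libraries overlapped. *Mki67* had a log2 fold change of -0.076 (95% interval -0.35 to 0.20), with limma p = 0.527, adjusted p = 0.773 and exact permutation p = 0.7, and its sign turned to 0.023 without knockout 2. *Top2a* was at 33.3, 35.1 and 32.4 FPKM in the control and 34.3, 25.8 and 36.2 FPKM in the knockout libraries, with the same library apart. *Top2a* had a log2 fold change of -0.080 (95% interval -0.40 to 0.25), with limma p = 0.577, adjusted p = 0.802 and exact permutation p = 0.9, and 0.067 without knockout 2. *Ccnb1* was at 14.3, 14.7 and 12.6 FPKM in the control and 14.2, 10.2 and 14.6 FPKM in the knockout libraries. It too was lowest in knockout 2. *Ccnb1* had a log2 fold change of -0.10 (95% interval -0.47 to 0.26), with limma p = 0.514, adjusted p = 0.765 and exact permutation p = 0.6, and 0.056 without knockout 2. *Cdk1* was at 13.2, 12.3 and 11.1 FPKM in the control and 14.2, 10.3 and 16.7 FPKM in the knockout libraries. Its highest and lowest values were both knockout libraries. *Cdk1* had a log2 fold change of 0.14 (95% interval -0.28 to 0.57), with limma p = 0.443, adjusted p = 0.718 and exact permutation p = 0.5, and -0.0061 without knockout 3.

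*Kif20a* (chr18:34624624-34633265, forward strand, ENSMUSG00000003779), a kinesin of the central spindle, was at 11.2, 12.2 and 9.78 FPKM in the control and 9.92, 7.82 and 9.93 FPKM in the knockout libraries. Controls 1 and 2 lay above all knockout libraries, and control 3 below knockouts 1 and 3. *Kif20a* had a log2 fold change of -0.25 (95% interval -0.57 to 0.064), with limma p = 0.101, adjusted p = 0.416 and exact permutation p = 0.3, the lowest fold change of its class and the smallest p among the 42 members in tumors. It shares 2315 bases with *Cdc23* on the other strand. *Birc5* (chr11:117849251-117855743, forward strand, ENSMUSG00000017716), survivin, a subunit of the chromosomal passenger complex, was at 9.95, 9.798 and 8.67 FPKM in the control and 11.8, 8.96 and 16.8 FPKM in the knockout libraries. Knockout 3 stood far above the rest, and knockout 2 lay among the controls. *Birc5* had a log2 fold change of 0.34 (95% interval -0.17 to 0.86), with limma p = 0.154, adjusted p = 0.474 and exact permutation p = 0.3, the highest fold change of the 42, which was 0.12 without knockout 3. *Cenpe* (chr3:135212537-135273611, forward strand, ENSMUSG00000045328), a kinetochore motor, was at 5.14, 5.32 and 4.88 FPKM in the control and 4.19, 4.35 and 5.28 FPKM in the knockout libraries. Knockouts 1 and 2 lay below every control, and knockout 3 close to the highest. *Cenpe* had a log2 fold change of -0.14 (95% interval -0.42 to 0.14), with limma p = 0.269, adjusted p = 0.584 and exact permutation p = 0.3. *Plk1* was level between tumor genotypes, at 45.5 ± 5.59 against 45.7 ± 5.84 FPKM (SD, n = 3 each), with a log2 fold change of 0.0040 (95% interval -0.32 to 0.33). *Ube2c* and *Cdc20* were at 0.22 and 0.19 on the log2 scale, both with overlapping groups.

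The sums of both classes had a larger SD in knockout than in control tumors, a difference that was not tested. S-phase members summed to 347, 354 and 297 FPKM in control and 359, 285 and 349 FPKM in knockout tumors, or 333 ± 31.1 against 331 ± 39.9 FPKM (SD, n = 3 each). Knockout 2 was lowest and knockout 1 highest. Mitotic members summed to 374, 367 and 315 FPKM in control and 379, 293 and 417 FPKM in knockout tumors, or 352 ± 32.3 against 363 ± 63.7 FPKM (SD, n = 3 each). Both extremes, knockout 3 above and knockout 2 below, were knockout tumors. The mitotic to S-phase ratio was 1.08, 1.04 and 1.06 in control and 1.06, 1.03 and 1.197 in knockout tumors, and knockout 3 alone stood apart. Knockout 3 and control 3 are the female tumors, and the part of sex in this ratio was not tested. Without knockout 2 the medians were 0.053 for S-phase and 0.13 for mitotic members, with 19 and 19 of 21 higher and 4 of 42 at an unadjusted p under 0.05 by limma, *Ube2c*, *Aurkb*, *Cdk1* and *Birc5*, against 15.2% of all genes, but 0 at an adjusted p under 0.05. Without control 3 the medians were -0.10 and -0.080, with 4 and 8 higher. Leaving out control 1 or control 2 gave S-phase medians of 0.0055 and -0.0062 and mitotic medians of 0.050 and 0.051. Without knockout 1 they were -0.11 and -0.029, and without knockout 3 they were -0.039 and -0.078, each with 1 member at an unadjusted p under 0.05, *Cdt1* and *Rfc3* in this order, against 11.6% and 10.5% of all genes. These genes are named after their values were seen.

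**Figure D5:**
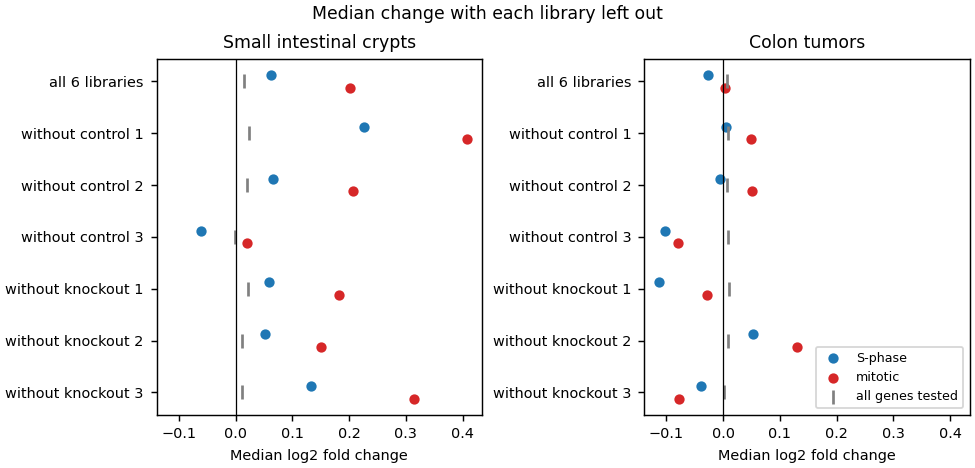
Median log2 fold change of S-phase and mitotic members with all 6 libraries and with each library left out in turn, in crypts and in tumors. The mitotic median in crypts ranged from 0.019 without control 3 to 0.41 without control 1, and in tumors from -0.080 without control 3 to 0.13 without knockout 2.

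Marker lists differed between the same tumors. The 8 epithelium markers, led by *Krt8*, summed to 4342, 4400.4 and 3838 FPKM in the control and 5115, 4972 and 5292 FPKM in the knockout libraries, with 8 of 8 (8, 8 and 6) tested higher, a median log2 fold change of 0.31 and no overlap for 7, or 4, 4 and 1 under the 3 scalings. Among all genes 11.4% did not overlap with the knockout higher as deposited, and 5.74%, 5.92% and 9.33% under the scalings. The 8 goblet cell markers, led by *Spink4*, summed to 1416, 1428 and 1464 FPKM in control and 2706, 3247 and 2863 FPKM in knockout tumors, with 8 of 8 (8, 8 and 8) tested higher, a median log2 fold change of 1.04 and no overlap for any of them. The 11 Paneth cell markers, led by *Lyz1*, summed to 2105, 2207 and 2446 FPKM and 3125, 5101 and 1788 FPKM, with 10 of 11 (9, 9 and 8) tested higher. They were highest in knockout 2, where most members were lowest, and lowest in knockout 3, where mitotic members were highest. The 8 colonocyte markers, led by *Car1*, summed to 148, 137 and 159 FPKM and 221, 407 and 252 FPKM, again highest in knockout 2, with 8 of 8 (8, 8 and 8) tested higher. The 10 fibroblast and smooth muscle markers, led by *Col1a1*, summed to 461, 329 and 302 FPKM in the control and 479, 574 and 489.7 FPKM in the knockout libraries, with 9 of 10 (9, 9 and 9) tested higher. None of these genes was at 0 in a tumor library. The 14 leukocyte markers, led by *S100a9*, summed to 217, 438 and 310.1 FPKM in the control and 217, 132 and 199 FPKM in the knockout libraries, with 6 of 9 (4, 4 and 6) tested higher and none at 0. The 8 germinal center B cell markers, led by *Bcl6*, summed to 11.7, 9.68 and 11.8 FPKM in the control and 11.5, 11.8 and 11.5 FPKM in the knockout libraries, with 2 of 3 (0, 0 and 2) tested higher, and with *Mef2b* and *Rgs13* at 0 in some libraries. The 8 stem cell markers, led by *Axin2*, summed to 301, 323 and 326 FPKM in the control and 283, 262 and 273 FPKM in the knockout libraries, with 1 of 7 (1, 1 and 1) tested higher. Of these markers 3 lay lower without overlap as deposited and under each of the 3 scalings. Among all genes that share was 10.6% as deposited and 17.5%, 18.3% and 12.5% under the scalings. In the higher direction 1 marker did not overlap as deposited, and 0 under the scalings. The part of any of these lists in the levels of the members was not tested.

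The wider lists were counted in tumors beside all genes, of which 51.3% (36.7%, 36.6% and 47.6%) were higher. Of 50 other replication genes 22 (9, 8 and 19) were higher, with a median of -0.032. Groups did not overlap for 6 in the lower direction and for 1, *Gmnn*, in the higher, named after its values were seen, beside the 10.6% and 11.4% of all genes. *Gmnn* overlapped after both rescalings and quantile normalization. *Orc3*, a subunit of the origin recognition complex, was at 5.79, 6.79 and 6.62 FPKM in the control and 5.15, 5.61 and 4.91 FPKM in the knockout libraries, without overlap. *Orc3* had a log2 fold change of -0.27 (95% interval -0.52 to -0.014), with limma p = 0.0412, adjusted p = 0.336 and exact permutation p = 0.1. The chromatin remodeler *Hells* had a log2 fold change of -0.35 (95% interval -0.76 to 0.053), with limma p = 0.0783, adjusted p = 0.388 and exact permutation p = 0.1, also without overlap except after quantile normalization. Of 60 other mitosis genes 35 (16, 16 and 29) were higher, with a median of 0.016, and limma counted 2, *Cks2* and *Pbk*, on the higher and 0 on the lower side with unadjusted p under 0.05, shares below those of all genes. *Cks2*, a small partner of CDK1, was at 37.6, 32.5 and 34.6 FPKM in the control and 48.6, 40.2 and 55.3 FPKM in the knockout libraries. Every knockout library was above every control. *Cks2* had a log2 fold change of 0.45 (95% interval 0.13 to 0.76), with limma p = 0.0125, adjusted p = 0.287 and exact permutation p = 0.1. The mitotic kinase *Pbk* had a log2 fold change of 0.28 (95% interval 0.022 to 0.53), with limma p = 0.0374, adjusted p = 0.3302 and exact permutation p = 0.1, without overlap as deposited but with overlap after both rescalings and quantile normalization, and the securin *Pttg1* had 0.26 with overlapping groups.

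Among 44 regulators in tumors 24 (14, 14 and 19) were higher, with a median of 0.012, and limma counted 3, *Ccnd3*, *Cdkn2b* and *Cdkn1a*, on the higher and 1, *E2f3*, on the lower side with unadjusted p under 0.05. Groups did not overlap for 4 in the higher direction, *Ccnd3*, *Cdkn1a*, *Cdkn2b* and *Cdkn2c*, and for 3 in the lower, *E2f3*, *Tfdp2* and *Cdk2*, all named after their values were seen. All 4 shares lay below those of all genes, 8.46% and 6% by p and 11.4% and 10.6% by overlap. After rescaling to the same total, *Ccnd3*, *E2f3*, *Tfdp2* and *Cdk2* were still without overlap and the 3 others were not. Cyclin D3, *Ccnd3*, was at 5.68, 5.71 and 5.36 FPKM in the control and 7.21, 7.16 and 8.34 FPKM in the knockout libraries. Every knockout tumor was above every control tumor, whereas in crypts its log2 fold change was -0.22. *Ccnd3* had a log2 fold change of 0.40 (95% interval 0.17 to 0.64), with limma p = 0.00523, adjusted p = 0.269 and exact permutation p = 0.1. The kinase inhibitors *Cdkn2b* and *Cdkn1a* lay on the same side. *Cdkn2b* was at 19.5, 20.3 and 18.7 FPKM in the control and 24.4, 28.4 and 23.3 FPKM in the knockout libraries, without overlap, and had a log2 fold change of 0.37 (95% interval 0.13 to 0.60), with limma p = 0.00797, adjusted p = 0.272 and exact permutation p = 0.1. *Cdkn1a* was at 47.6, 46.1 and 56.95 FPKM in the control and 59.3, 74.2 and 76.6 FPKM in the knockout libraries, without overlap. *Cdkn1a* had a log2 fold change of 0.47 (95% interval 0.15 to 0.79), with limma p = 0.0107, adjusted p = 0.282 and exact permutation p = 0.1. The activator *E2f1* overlapped between genotypes. *E2f1* was at 7.99, 6.96 and 5.83 FPKM in the control and 7.35, 6.23 and 7.22 FPKM in the knockout libraries, with a log2 fold change of 0.0080 that turned to -0.095 after rescaling to the same total, -0.096 without the 50 highest genes and -0.0015 after quantile normalization. Its value was also -0.10 without control 3, -0.033 without knockout 1 and -0.021 without knockout 3. *E2f8* had 0.15 (95% interval -0.17 to 0.47), *Foxm1* 0.18 (-0.14 to 0.50) and *Mybl2* -0.032 (-0.50 to 0.44), the last turning to 0.12 without control 1 and 0.088 without knockout 2. *Myc* was at 38.2, 24.96 and 41.4 FPKM in the control and 32.1, 35.6 and 35.8 FPKM in the knockout libraries, lowest in control 2. Its log2 fold change of 0.017 turned to -0.092 after rescaling to the same total, -0.093 without the 50 highest genes and -0.10 after quantile normalization, and to -0.20 without control 2, -0.0066 without knockout 2 and -0.0095 without knockout 3. *Ccnd1* was at 40.9, 41.5 and 42.2 FPKM in the control and 39.4, 50.9 and 37.5 FPKM in the knockout libraries, with 0.022 on the log2 scale, which turned to -0.088, -0.089 and -0.085 in the same order, and to -0.11 without knockout 2.

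Set side by side, the tissues gave different directions for many members. Of the 21 S-phase members 5 were higher in knockout crypts and knockout tumors, 3 were lower in both, 9 were higher in crypts and lower in tumors, and 4 the reverse. Of the 21 mitotic members 10 were higher in both, 10 higher in crypts and lower in tumors, 1 the reverse and 0 lower in both. The scaling changes these counts too, as the class counts given above show, and the difference between tissues was not tested. Some limits belong to single genes. By position 11 members share bases with a gene of at least 0.5 FPKM on the other strand, namely *Mcm7*, *Gins2*, *Cdc45*, *Rfc4*, *Ccne2*, *Top2a*, *Ccna2*, *Cdc20*, *Plk1*, *Kif20a* and *Nusap1*. *Rfc4* shares 194 bases with *Eif4a2*, which was at a mean of 57.8 FPKM in crypts. Annotated pseudogenes held few reads: the *Ube2c* pseudogene *AC151284.1* had 1.52 FPKM in crypts and 2.06 FPKM in tumors, *Pcna-ps2* had 1.11 and 0.763 FPKM, and *Ccnb2-ps* had 0.434 and 1.15 FPKM. How reads that fit a gene and its pseudogene were assigned is not stated. The members lie on 18 chromosomes, with 8 of them on chromosome 2.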

How the data were processed

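RNA was measured in 12 libraries, 3 per genotype in each tissue. FPKM values per gene and library were deposited by the authors. According to the submitters' processing notes reads were trimmed with cutadapt, aligned to mm10 with HISAT2 and processed with Cufflinks 2.2.1 and DESeq2, and the methods name featureCounts for counting. Neither states the use of strand. Fragments per gene were recovered from FPKM and gene length, and 100% of them came out whole within a tolerance of 0.01.

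In R 4.3.3, limma 3.58.1 was fitted to log2(FPKM + 0.5) for each comparison, with a variance trend, over all genes with a mean of at least 0.5 FPKM in its 6 libraries and with no covariate, and p-values were adjusted by Benjamini-Hochberg over all genes at a threshold of 0.05. Single genes also had a two-sided exact permutation test. The fit was tested on simulated data. Replicates differed beyond sampling noise, with a lowest chi-square per gene of 17.9 over 12 pairs. The genes given in full are *Mki67*, *Top2a*, *Ccnb1*, *Cdk1*, *Pcna*, *Mcm2*, *Rrm2* and *Ccne1* in both comparisons, and the 3 S-phase and 3 mitotic members with the smallest p in each. From the other lists these are taken from the 3 with the smallest p in each, and *E2f1*, *E2f8*, *Foxm1*, *Mybl2*, *Myc*, *Ccnd1* and *Cdkn1a*. Members and lists were chosen with earlier results of these data known. Some genes of the other lists are not reported here.

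Alternatives were a pseudocount of 0.1 or 1, no filter or a mean of at least 1 FPKM, rescaling to the same total with or without the 50 highest genes, quantile normalization, no variance trend, robust variance moderation, limma voom on recovered fragments, a test of protein-coding genes only, a replicate block, sex as a covariate in tumors, and each library left out in turn. Promoter windows came from RefSeq, build GRCm38.p6.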

Additional observations from a re-analysis of the deposited data

How the results depend on the processing

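In no alternative did a member have an adjusted p under 0.05 with limma or voom. The count of genes with an adjusted p under 0.05 in crypts was 0 in every alternative that kept all 6 libraries and ranged from 0 to 3 with a library left out. The 3 were called without control 3, and were *Pgc* (log2 fold change -2.71, adjusted p = 0.0174), *Gkn2* (log2 fold change -4.82, adjusted p = 0.002698) and *Gkn1* (log2 fold change -4.03, adjusted p = 0.00504), all genes of the stomach. In tumors the count was 1 with no variance trend, *Mir3473e* (log2 fold change -2.004, adjusted p = 0.04802), and 0 in the rest. These 4 genes are named because their values were seen. No other call changed, and the cause was not tested. With the replicate block the counts were 0 in both tissues, with 732 genes in crypts and 1882 in tumors at an unadjusted p under 0.05, against 829 and 2421 without it. Every replicate number occurs in both genotypes, so the block cannot change a fold change. The medians of both classes therefore stayed at 0.063 and 0.20 in crypts and -0.026 and 0.0040 in tumors. Libraries with the same number did not pair: their correlations across genes, after centering within genotype, were -0.12 to 0.037 in crypts and -0.090 to 0.054 in tumors, and 0 of 6 and 2 of 6 libraries correlated best with their own number. Genes are not independent replicates.

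With libraries left out in turn, class medians ranged over -0.060 to 0.23 (S-phase) and 0.019 to 0.41 (mitotic) in crypts, and over -0.11 to 0.053 and -0.080 to 0.13 in tumors. The log2 fold changes that reversed in this way ranged in crypts over -0.14 to 0.31 for *Mki67*, -0.047 to 0.43 for *Top2a*, -0.18 to 0.026 for *Mcm2*, -0.058 to 0.25 for *Rrm2*, -0.21 to 0.097 for *Ccne1*, -0.11 to 0.10 for *E2f1*, -0.13 to 0.16 for *Foxm1*, -0.20 to 0.16 for *Mybl2*, -0.18 to 0.68 for *Myc*, -0.32 to 0.13 for *Ccnd1* and -0.32 to 0.13 for *Cdkn1a*. In tumors they ranged over -0.13 to 0.023 for *Mki67*, -0.17 to 0.067 for *Top2a*, -0.19 to 0.056 for *Ccnb1*, -0.0061 to 0.33 for *Cdk1*, -0.16 to 0.057 for *Mcm2*, -0.087 to 0.077 for *Rrm2*, -0.10 to 0.11 for *E2f1*, -0.20 to 0.12 for *Mybl2*, -0.20 to 0.16 for *Myc* and -0.11 to 0.11 for *Ccnd1*. The cause was not tested.

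Other reversals came with scaling. In crypts rescaling to the same total gave 0.037 for *Mcm2*, 0.069 for *Ccne1*, 0.13 for *Foxm1*, 0.058 for *Mybl2*, 0.024 for *Ccnd1* and 0.081 for *Cdkn1a*, rescaling without the 50 highest genes gave -0.024 for *E2f1*, and quantile normalization gave -0.0050 for *Mki67*. In tumors rescaling to the same total gave -0.099 for *Rrm2*, -0.095 for *E2f1*, -0.092 for *Myc* and -0.088 for *Ccnd1*, rescaling without the 50 highest genes gave -0.10 for *Rrm2*, -0.096 for *E2f1*, -0.093 for *Myc* and -0.089 for *Ccnd1*, and quantile normalization gave -0.013 for *Pcna*, -0.066 for *Rrm2*, -0.0015 for *E2f1*, -0.10 for *Myc* and -0.085 for *Ccnd1*. The cause was not tested. The other pseudocounts and voom reversed none of the genes followed here, which are those of the naming rule, 30 in crypts and 28 in tumors. The filters, variance settings, protein-coding genes, replicate block and sex as a covariate could reverse none. They leave each gene's fold change as it was, since sex and replicate number were balanced between genotypes.

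With 3 libraries a group, the 95% intervals of mitotic members had a median half-width of 0.49 in crypts and 0.36 in tumors, and differences inside a gene's interval were not resolved. Members had at least 91 fragments in each crypt library and 121 in each tumor library.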
